A study of Mus musculus with 6 samples.

Results

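The collagen genes of the mouse hair follicle were followed across 3 cell populations on microarrays. A gene was counted as a collagen where its symbol in the platform annotation was Col, a number, the letter a and a number, with nothing after it, and this rule took 42 of the 18193 genes measured, whatever their level. The rule used no measured difference between populations. RNA came from the back skin of female, untreated CD-1 mice, with 2 arrays for each population and 6 in all. Quiescent stem cells of the follicle (qHF-SC) came from mice aged 52 to 60 postnatal days, with CD34 and integrin α6 as sorting markers. Activated stem cells (aHF-SC) came from mice aged 28 to 30 days, with CD34, integrin α6 and GFP as sorting markers. Transient-amplifying matrix cells (HF-TAC), the dividing progeny at the base of the growing follicle, also came from days 28 to 30, with ephrinB1, integrin α6 and GFP as sorting markers. The sorting markers therefore changed together with cell state in every comparison, and age did so wherever qHF-SC was compared, and these cannot be told apart. The labels name neither the promoter nor the animal that carries GFP, nor the side of each sorting gate, and do not say that the 2 arrays of a population came from separate mice, so p-values measure the spread between arrays, which may be technical.

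Collagens are extracellular proteins in which 3 chains wind into a triple helix, and the chains of 1 molecule can come from different genes. Type IV collagen forms the sheet of the basement membrane on which epithelial cells sit, type XVII spans the basal cell membrane inside hemidesmosomes, and type VII forms the fibrils that anchor that sheet to the dermis. Fibrillar types such as I and III fill the dermis and are classically made by fibroblasts, while types VI and VIII form beaded filaments and hexagonal networks. In the hair follicle, basal epithelial cells make part of their own basement membrane, and loss of type XVII collagen from follicle stem cells is known to lead to hair loss.

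The arrays were alike in scale, with median intensities between 22.8 and 23.9. A gene is called dim below where its probe set lay at or below the array median on all 6 arrays, which held for 12 collagen genes. Probe sets for 9 genes of other organs, such as liver, pancreas and testis, read up to 117, so a low intensity is no proof of a transcript. Markers followed the labels, with CD34 and integrin α6 among the sorting markers themselves. The median over 10 bulge stem cell genes lay between 2504 and 3379 on the 4 stem cell arrays and at 503 and 660.1 in HF-TAC. That of 10 hair matrix genes was 59.4 and 49.97 in qHF-SC, 107 and 142 in aHF-SC, and 599 and 1197 in HF-TAC. Markers of other cell types are given beside the collagens that they bear on.

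Where RefSeq listed a transcription start, the 250 bases before it were examined. A start was found for 33 of the 42 collagen genes, with 36 windows in all. Col6a2 had 2 listed starts, and the window printed below is that of the most upstream one. Windows of 5 genes treated below are shown, and no result on their levels rests on the windows. They are the chain partners Col6a1 and Col6a2, which were lower at each step from qHF-SC to HF-TAC, and Col17a1 of the hemidesmosome. The others are the partners Col8a1 and Col8a2, whose values went opposite ways between the stem cell populations, where Col8a1 did not pass the test given below. The windows in GRCm38.p6 are chr10:76726045-76726294 for Col6a1, chr10:76623631-76623880 for Col6a2, chr16:57754738-57754987 for Col8a1 and chr19:47692043-47692292 for Col17a1 on the minus strand, and chr4:126286544-126286793 for Col8a2 on the plus strand, and none lies inside another annotated gene. All are written 5′ to 3′ along the gene, and capitals mark exact matches on either strand to any of 4 short promoter motifs. The TATA box was searched with the letters TATAAA and the CCAAT box with the letters of its name. The GC box, which factors of the Sp family bind, was searched as GGGCGG. The motif of AP-1, a dimer of Fos and Jun proteins, was searched as TGANTCA. Different motifs share no bases in these windows, while 2 neighbouring GC box matches of Col8a2 overlap.
Col6a1: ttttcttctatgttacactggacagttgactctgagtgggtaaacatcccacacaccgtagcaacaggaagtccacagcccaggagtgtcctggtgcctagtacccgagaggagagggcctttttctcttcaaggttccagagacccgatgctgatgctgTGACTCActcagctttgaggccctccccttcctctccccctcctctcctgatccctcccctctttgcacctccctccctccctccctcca
Col6a2: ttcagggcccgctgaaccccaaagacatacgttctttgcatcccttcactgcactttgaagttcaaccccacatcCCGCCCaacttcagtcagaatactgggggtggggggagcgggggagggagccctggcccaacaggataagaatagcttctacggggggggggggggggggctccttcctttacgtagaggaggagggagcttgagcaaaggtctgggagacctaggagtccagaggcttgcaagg
Col8a1: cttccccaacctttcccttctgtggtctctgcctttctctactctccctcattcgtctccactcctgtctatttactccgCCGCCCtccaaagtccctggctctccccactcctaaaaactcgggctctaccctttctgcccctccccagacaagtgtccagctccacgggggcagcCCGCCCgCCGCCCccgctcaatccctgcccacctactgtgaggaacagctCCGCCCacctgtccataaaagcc
Col8a2: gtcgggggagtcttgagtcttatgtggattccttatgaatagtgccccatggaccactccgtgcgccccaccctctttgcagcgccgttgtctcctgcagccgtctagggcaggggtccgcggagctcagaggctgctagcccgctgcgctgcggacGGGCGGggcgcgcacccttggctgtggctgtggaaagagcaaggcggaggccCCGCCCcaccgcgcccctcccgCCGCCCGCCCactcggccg
Col17a1: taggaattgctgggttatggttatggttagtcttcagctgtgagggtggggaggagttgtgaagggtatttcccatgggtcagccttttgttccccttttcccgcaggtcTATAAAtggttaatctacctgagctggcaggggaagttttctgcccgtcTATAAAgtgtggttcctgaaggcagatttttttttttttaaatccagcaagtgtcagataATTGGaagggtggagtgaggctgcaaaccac

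Both type VIII windows held 4 GC box matches, the Col6a2 window held 1, and the Col6a1 and Col17a1 windows held none. The window of Col6a1 had the AP-1 motif, the single match among the 36 collagen windows (2.78%), against 6.75% of 32851 windows of all genes. Col17a1 had 2 TATA box matches and 1 CCAAT box. Over all collagen windows the GC box was found in 21 (58.3%) against 32.7% of all windows, the CCAAT box in 13 (36.1%) against 33.8%, and the TATA box in 5 (13.9%) against 12.4%. A match describes the letters and says nothing of whether a factor binds there.

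Of the 42 collagen genes, 20 passed the test in at least 1 of the 3 pairwise comparisons, and the commonest change was a lower level in HF-TAC. The test was limma on log2 intensity with all 6 arrays in 1 fit, and a gene passed at a Benjamini-Hochberg adjusted p under 0.05 over all 18193 genes. Between HF-TAC and aHF-SC, 17 collagens were lower (40.5%), where 8.57% of all genes were lower, and none was higher, where 8.97% of all genes were. At an unadjusted p under 0.05 that last count was 2, Col13a1 and Col23a1. Between HF-TAC and qHF-SC, 16 collagens were lower (38.1%, against 12.9% of all genes) and 1, Col23a1, was higher (2.38%, against 13.4%). Between the 2 stem cell populations, 5 were higher in aHF-SC (11.9%, against 3.07% of all genes) and 3 were lower (7.14%, against 3.21%). The comparisons share arrays, so their counts are not independent of each other, and in sorted bulk RNA fewer cells of a type and less RNA per cell cannot be told apart.

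**Figure D1:**
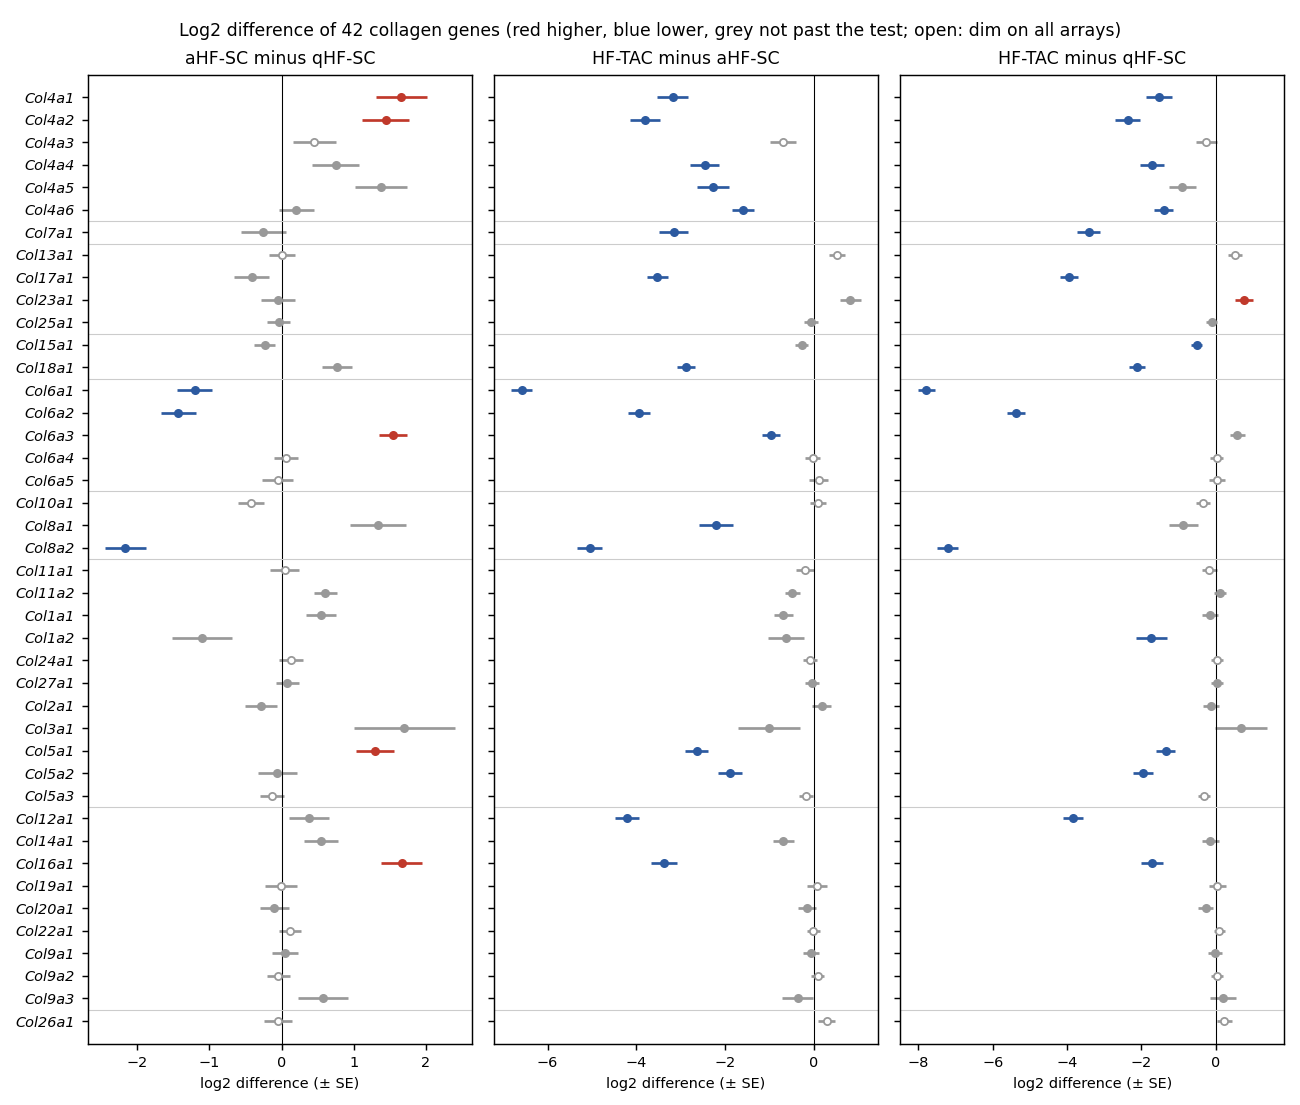
Log2 difference with its standard error (x axis) for the 42 collagen genes (y axis, grouped by structural class) in the 3 comparisons, with red for genes past the test upward, blue for downward, grey for neither and open symbols for the 12 dim genes. Blue points fill the comparisons with HF-TAC, 17 against aHF-SC and 16 against qHF-SC, while the stem cell comparison holds 5 red and 3 blue points.

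Counted by arrays alone, every HF-TAC array lay below every aHF-SC array in 24 collagens (57.1%, against 27.9% of all genes) and above in 4 (9.52%, against 26.4%). Every HF-TAC array lay below every qHF-SC array in 20 (47.6%, against 31.2%) and above in 5 (11.9%, against 30%). Every aHF-SC array lay above every qHF-SC array in 13 (31%, against 25.7%) and below in 7 (16.7%, against 25.1%). The median log2 difference over the 42 collagens was -0.66 between HF-TAC and aHF-SC and -0.25 between HF-TAC and qHF-SC, where the medians of all genes were -0.01 and -0.01. Between aHF-SC and qHF-SC it was 0.06, against 0.00 for all genes. Among the 20 collagens past a test, 11 had their highest mean in aHF-SC (55%), 8 in qHF-SC (40%) and 1 in HF-TAC (5%). Of the 5473 genes past a test over the whole table, 17.4% were highest in aHF-SC, 36.1% in qHF-SC and 46.5% in HF-TAC. In 4 genes (Col4a1, Col4a2, Col5a1 and Col16a1) the level was higher in aHF-SC than in qHF-SC and lower in HF-TAC than in both, a pattern that 35 of all 18193 genes had (0.192%). In 3 (Col6a1, Col6a2 and Col8a2) it was lower in aHF-SC than qHF-SC and lower again in HF-TAC, as in 0.846% of all genes. In 7 (Col4a4, Col4a6, Col5a2, Col7a1, Col12a1, Col17a1 and Col18a1) the stem cell populations did not pass the test against each other and HF-TAC was lower than both, as in 5.62% of all genes.

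The 17 calls against aHF-SC were stable to the loss of any 1 array, except that of Col6a3, and 12 of the 17 calls against qHF-SC passed in each of the fits that left out 1 array. The 8 calls between the stem cell populations were not: none of them passed in all 6 of those fits. Without qHF-SC replicate 2 none of the 8 passed, with adjusted p from 0.0661 for Col6a3 to 0.254 for Col4a2, where 54 higher and 70 lower genes were left of 558 and 584 over the whole table. The values without single arrays stand with each gene below.

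**Figure D2:**
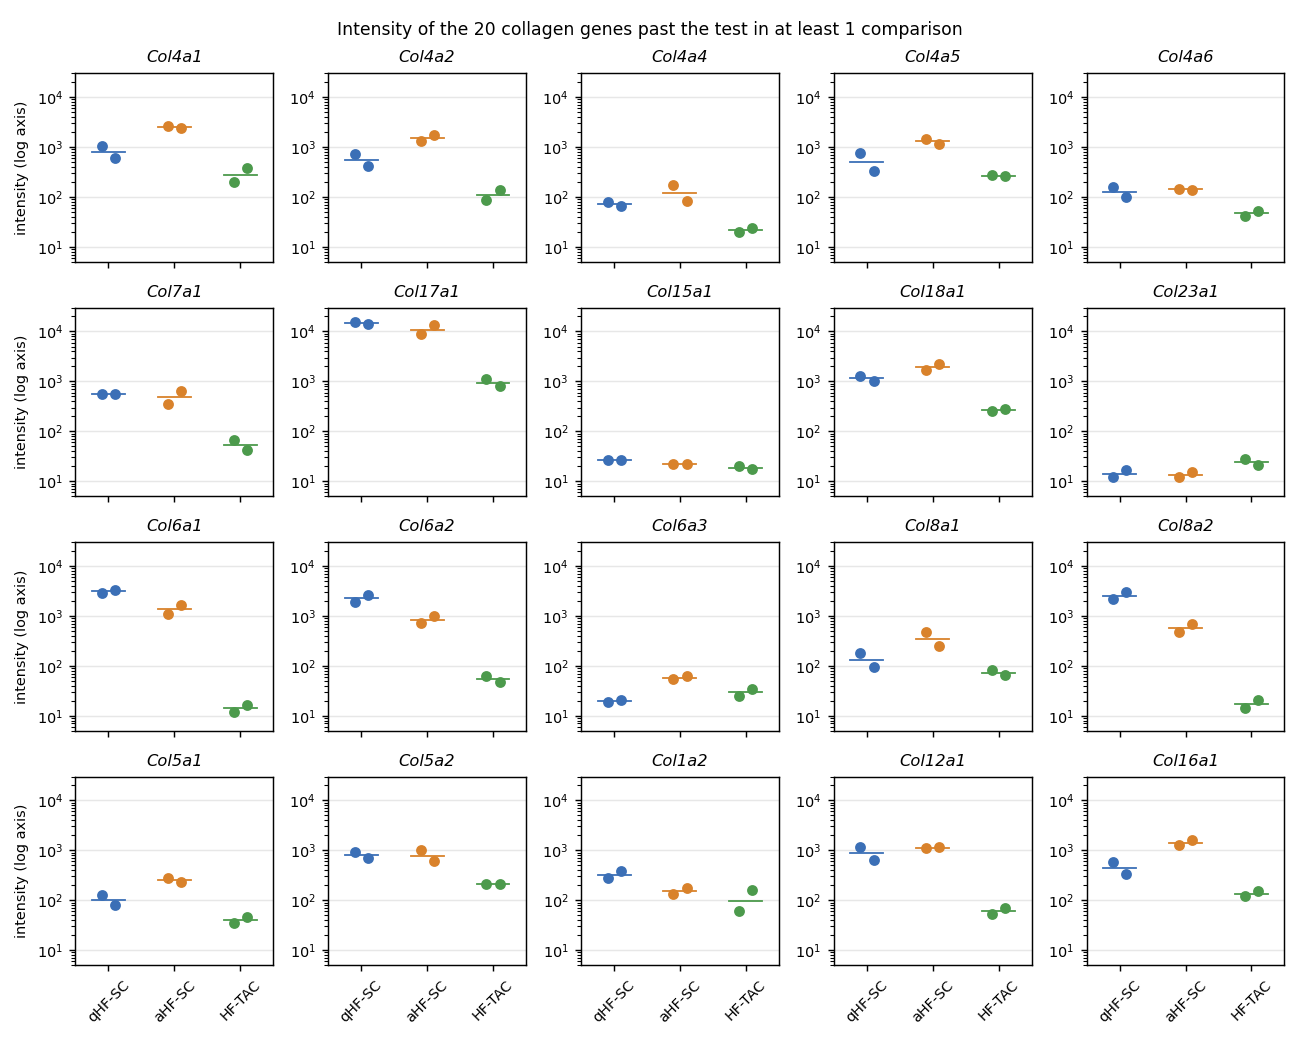
Intensity on a log axis (y) in the 3 populations (x) for the 20 collagen genes past the test in at least 1 comparison, with a point for each array and a bar at the geometric mean of the 2 arrays. The HF-TAC points lie lowest in most panels, Col6a1 and Col8a2 descend from left to right, and Col23a1 alone has its highest points in HF-TAC.

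Type IV collagen, the sheet-forming chain family of the basement membrane, was lower in HF-TAC for 5 of its 6 chains against aHF-SC (8.57% of all genes were) and for 4 against qHF-SC (12.9% of all genes), and higher in aHF-SC than in qHF-SC for 2 (3.07% of all genes). The median log2 difference of the 6 chains was 1.06 between aHF-SC and qHF-SC, -2.37 between HF-TAC and aHF-SC and -1.46 between HF-TAC and qHF-SC. Col4a1 and Col4a2 encode the 2 chains of the form found in nearly all basement membranes. The intensities of Col4a1 were 1030.4 and 608 in qHF-SC, 2673 and 2348 in aHF-SC and 199.9 and 379 in HF-TAC. Every aHF-SC array lay above every qHF-SC array, and every HF-TAC array below both. Its level was 3.17-fold higher in aHF-SC than in qHF-SC (log2 difference 1.66 ± 0.35, adjusted p = 0.038, ± being the standard error of the fit and folds being ratios of geometric means), 9.11-fold lower in HF-TAC than in aHF-SC (log2 difference -3.19 ± 0.35, adjusted p = 0.00141) and 2.88-fold lower in HF-TAC than in qHF-SC (log2 difference -1.52 ± 0.35, adjusted p = 0.016).

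Col4a2 read 739.9 and 418 in qHF-SC, 1326 and 1720.1 in aHF-SC and 84.9 and 137 in HF-TAC, in the same order of populations and again without overlap. It was 2.72-fold higher in aHF-SC than in qHF-SC (log2 difference 1.44 ± 0.33, adjusted p = 0.0491), and HF-TAC was 14-fold below aHF-SC (adjusted p = 0.000657) and 5.15-fold below qHF-SC (adjusted p = 0.00196). The 2 genes lie head to head on chromosome 8 with starts 21 bases apart in RefSeq. The calls of a higher level in aHF-SC were not stable, while the sign of the difference held. Both calls were lost without qHF-SC replicate 2, aHF-SC replicate 1 or aHF-SC replicate 2, fits that leave 1 array in a group. In that order the log2 differences were 1.28, 1.57 and 1.76 for Col4a1 and 1.03, 1.63 and 1.255 for Col4a2. With all 6 arrays, an offset of 16 added before the log also lost both calls (adjusted p = 0.0887 and 0.102). Over 17 alternative settings the call passed in 12 for Col4a1 and in 9 for Col4a2. The lower level of Col4a1 in HF-TAC than in qHF-SC was lost when qHF-SC replicate 1 (adjusted p = 0.0953) or HF-TAC replicate 1 (0.0585) was left out, in a range from 0.00393 to 0.0953.

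The other type IV chains are made in fewer basement membranes. Col4a5, with its partner gene Col4a6 head to head on chromosome X, read 765 and 327 in qHF-SC, 1465 and 1159 in aHF-SC and 276 and 261 in HF-TAC, so HF-TAC lay below the other populations on every array. It was 4.86-fold lower in HF-TAC than in aHF-SC (log2 difference -2.28 ± 0.36, adjusted p = 0.0056), while its difference of 1.38 between the stem cell populations (adjusted p = 0.0746) and of -0.90 between HF-TAC and qHF-SC (adjusted p = 0.121) did not pass. The 2 qHF-SC arrays of this gene were more than 2-fold apart. Col4a6 showed no such split: its intensities were 156 and 98.1 in qHF-SC, 146 and 139 in aHF-SC and 41.2 and 53.2 in HF-TAC. It was 3.04-fold lower in HF-TAC than in aHF-SC (adjusted p = 0.00475) and 2.64-fold lower than in qHF-SC (adjusted p = 0.00534), and the stem cell populations differed by 0.20 (adjusted p = 0.742). Whether the 2 neighbours differ from each other in their change was not tested.

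Col4a4 read 79.9 and 64.8 in qHF-SC, 174 and 84.1 in aHF-SC and 19.8 and 24.2 in HF-TAC, with aHF-SC arrays more than 2-fold apart. HF-TAC was 5.53-fold below aHF-SC (log2 difference -2.47 ± 0.33, adjusted p = 0.00282) and 3.29-fold below qHF-SC (log2 difference -1.72 ± 0.33, adjusted p = 0.00763), the latter lost without qHF-SC replicate 1 (adjusted p = 0.0529, in a range of 0.00175 to 0.0529). With its 3 probe sets averaged in place of the highest, these differences were -1.68 and -1.11. HF-TAC replicate 1 lay below its array median, and with an offset of 16 added before the log HF-TAC was 3.64-fold below aHF-SC. Its neighbour and chain partner Col4a3 was dim, with intensities of 11 and 13.3 in qHF-SC, 22.7 and 12.2 in aHF-SC and 11.3 and 9.3 in HF-TAC, and passed no test.

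A list of 7 markers of smooth muscle and pericytes is set beside the type IV levels. Acta2, smooth muscle actin, read 59 and 29.4 in qHF-SC, 2892 and 1428 in aHF-SC and 149 and 252 in HF-TAC, and Tagln, a smooth muscle protein that binds actin, read 43.9 and 33 in qHF-SC, 1539 and 746 in aHF-SC and 102 and 148 in HF-TAC. These were the 2 of 7 markers on that list that were higher in aHF-SC than in qHF-SC (3.07% of all genes were). The same 2 were higher in HF-TAC than in qHF-SC (13.4% of all genes were), where 4 type IV chains were lower. The summed intensity of the list was 257 and 235 in qHF-SC, 4593 and 2342 in aHF-SC, and 419 and 555 in HF-TAC. Myh11, the myosin that defines smooth muscle, stayed between 14.8 and 15.7 over the stem cell arrays, and Pdgfrb, a pericyte receptor, between 39.4 and 45.4. All 7 endothelial markers together summed to between 160.4 and 177 on every array. Of the hair matrix markers, Krt35, a keratin of the hair shaft, and Top2a, a gene of dividing cells, also read higher in aHF-SC than qHF-SC, by 10.1-fold (adjusted p = 0.0118) and 5.74-fold (adjusted p = 0.0118). The part of other cells in the type IV result, and in the other collagens higher in aHF-SC, was not tested.

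Beyond type IV, the collagens that hold the basal cell to its basement membrane were lower in HF-TAC without a difference past the test between the stem cell populations. Col17a1, the hemidesmosome collagen whose upstream window is printed above, read 15181 and 13917 in qHF-SC, 8946 and 13287 in aHF-SC and 1122 and 797 in HF-TAC. The aHF-SC arrays lay below the qHF-SC arrays and the HF-TAC arrays far below both: HF-TAC was 11.5-fold below aHF-SC (log2 difference -3.53 ± 0.24, adjusted p = 0.000312) and 15.4-fold below qHF-SC (log2 difference -3.94 ± 0.24, adjusted p = 9.1e-05). The stem cell populations differed by -0.41 (adjusted p = 0.421). Col7a1, the anchoring fibril chain, had intensities of 569 and 569 in qHF-SC, 354 and 645 in aHF-SC and 66.8 and 42.5 in HF-TAC, with the qHF-SC arrays inside the range of the aHF-SC arrays. It was 8.97-fold lower in HF-TAC than in aHF-SC (log2 difference -3.16 ± 0.32, adjusted p = 0.00107) and 10.7-fold lower than in qHF-SC (log2 difference -3.42 ± 0.32, adjusted p = 0.000371).

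Col18a1 encodes a basement membrane collagen that carries heparan sulfate and gives rise to the fragment endostatin. It read 1305 and 1005 in qHF-SC, 1689.7 and 2260.2 in aHF-SC and 252 and 277 in HF-TAC, highest in aHF-SC and lowest in HF-TAC without overlap. HF-TAC was 7.39-fold below aHF-SC (adjusted p = 0.000348) and 4.33-fold below qHF-SC (adjusted p = 0.000462), whereas the difference of 0.77 between aHF-SC and qHF-SC did not pass (adjusted p = 0.08). Col15a1, the other member of this multiplexin class, had a small difference near the array median. It read 26.5 and 26.5 in qHF-SC, 22.4 and 22.7 in aHF-SC and 19.8 and 17.4 in HF-TAC, which gave 1.43-fold lower in HF-TAC than in qHF-SC (log2 difference -0.51 ± 0.15, adjusted p = 0.0404). That call was lost in each of the 6 fits without 1 array, at adjusted p from 0.0552 without HF-TAC replicate 1 to 0.171 without HF-TAC replicate 2.

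Type VI collagen, a filament-forming collagen found in most connective tissues, is assembled from the product of Col6a1, that of Col6a2 and a chain such as that of Col6a3. Col6a1 read 2909.8 and 3301 in qHF-SC, 1106 and 1630.4 in aHF-SC and 12.1 and 16.3 in HF-TAC, a descent from qHF-SC through aHF-SC to HF-TAC in which no 2 populations overlapped. The level was 2.31-fold lower in aHF-SC than qHF-SC (log2 difference -1.21 ± 0.24, adjusted p = 0.031), 95.6-fold lower in HF-TAC than in aHF-SC (log2 difference -6.58 ± 0.24, adjusted p = 0.000111) and 221-fold lower in HF-TAC than in qHF-SC (log2 difference -7.79 ± 0.24, adjusted p = 1.51e-05). Both HF-TAC arrays lay below the array median, so the size of both differences from HF-TAC depends on the background of the probe set, and with an offset of 16 added before the log they were 45.1-fold and 103-fold.

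Col6a2 followed the same order, with intensities of 1935 and 2672 in qHF-SC, 723 and 980.3 in aHF-SC and 63.5 and 47.2 in HF-TAC. Its level was 2.7-fold lower in aHF-SC than qHF-SC (log2 difference -1.43 ± 0.25, adjusted p = 0.0205), 15.4-fold lower in HF-TAC than in aHF-SC (adjusted p = 0.000248) and 41.5-fold lower in HF-TAC than in qHF-SC (adjusted p = 3.98e-05). Col6a2 and Col6a1 are neighbours on chromosome 10, on the same strand, with starts 102414 bases apart. Between the stem cell populations, the call of Col6a1 was lost without aHF-SC replicate 1 (adjusted p = 0.131), qHF-SC replicate 1 (0.0941) and qHF-SC replicate 2 (0.191), in a range from 0.0127 to 0.191 over 17 settings. That of Col6a2 was lost without aHF-SC replicate 1 (adjusted p = 0.106) and qHF-SC replicate 2 (0.141), in a range from 0.00729 to 0.141.

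The third chain went the other way between the stem cell populations. Col6a3 read 19.2 and 20.4 in qHF-SC, 53.2 and 62.7 in aHF-SC and 25.1 and 34.9 in HF-TAC, with aHF-SC highest and no overlap. It was 2.92-fold higher in aHF-SC than in qHF-SC (log2 difference 1.54 ± 0.20, adjusted p = 0.00962) and 1.95-fold lower in HF-TAC than in aHF-SC (log2 difference -0.97 ± 0.20, adjusted p = 0.016), and HF-TAC did not pass against qHF-SC (log2 difference 0.58, adjusted p = 0.0741). The gene had 1 probe set, and both qHF-SC arrays lay below the array median. Its first call was lost without qHF-SC replicate 2 (adjusted p = 0.0661, range 0.00293 to 0.0661) and its second without aHF-SC replicate 2 (0.0982) and HF-TAC replicate 1 (0.0571), in a range from 0.00704 to 0.0982. Col6a4 and Col6a5, which encode chains that can replace that of Col6a3, were dim and passed no test, and Col6a6 was not analysed here.

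**Figure D3:**
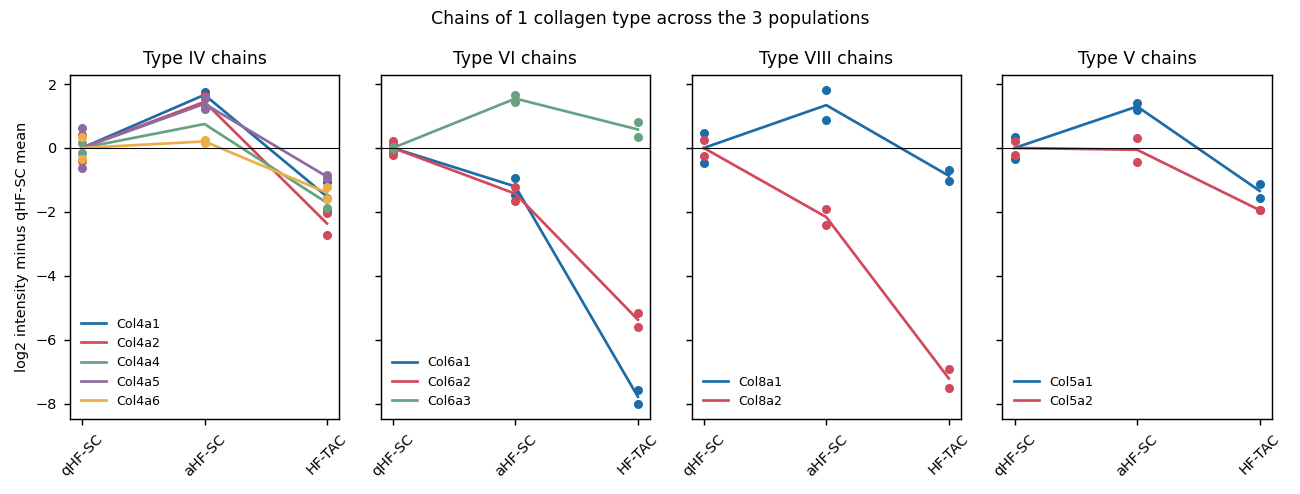
Log2 intensity of each array minus the qHF-SC mean of the same gene (y axis) in the 3 populations (x axis) for chains of types IV, VI, VIII and V, with points for arrays and lines through the means. Col6a1 and Col6a2 descend together while Col6a3 has its peak in aHF-SC, Col8a2 descends while Col8a1 peaks in aHF-SC, and all 5 type IV chains shown have their highest mean in aHF-SC and their lowest in HF-TAC.

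Type VIII collagen is a short network-forming collagen known from endothelial and corneal matrix, built from the chains of Col8a1 and Col8a2. Col8a2 read 2144 and 3040.4 in qHF-SC, 478 and 679 in aHF-SC and 14 and 21.2 in HF-TAC, falling from population to population with no overlap. It was 4.48-fold lower in aHF-SC than qHF-SC (log2 difference -2.16 ± 0.28, adjusted p = 0.00991), 33.1-fold lower in HF-TAC than in aHF-SC (log2 difference -5.05 ± 0.28, adjusted p = 0.00017) and 148-fold lower in HF-TAC than in qHF-SC (log2 difference -7.21 ± 0.28, adjusted p = 3.25e-05). As both HF-TAC arrays were below the array median, the last 2 folds shrank to 17.6 and 76.96 with an offset of 16. The call between the stem cell populations was lost without aHF-SC replicate 1 (adjusted p = 0.0543) and qHF-SC replicate 2 (0.0695), in a range from 0.00254 to 0.0695.

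Its partner Col8a1 read 185 and 96.3 in qHF-SC, 467 and 244 in aHF-SC and 82.3 and 64.6 in HF-TAC, highest in aHF-SC. Every aHF-SC array lay above every qHF-SC array, although the difference of 1.34 ± 0.39 did not pass (adjusted p = 0.0961). HF-TAC was 4.63-fold lower than aHF-SC (log2 difference -2.21 ± 0.39, adjusted p = 0.0082), a log2 difference of -1.37 with its 3 probe sets averaged, and the difference of -0.87 from qHF-SC did not pass (adjusted p = 0.154). The 2 upstream windows printed above carry the same number of GC boxes at different positions. Col10a1, the third network collagen and a product of hypertrophic cartilage, was dim.

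Of the 11 fibrillar collagens, 1 was higher in aHF-SC than in qHF-SC (3.07% of all genes were), 2 were lower in HF-TAC than in aHF-SC (8.57% of all genes) and 3 were lower in HF-TAC than in qHF-SC (12.9% of all genes). The type V chains, which set the diameter of type I fibrils and are found close to basement membranes, made up most of these. Col5a1 read 130.3 and 82 in qHF-SC, 276 and 234 in aHF-SC and 35.1 and 47.3 in HF-TAC, with aHF-SC highest, HF-TAC lowest and no overlap. It was 2.46-fold higher in aHF-SC than in qHF-SC (log2 difference 1.30 ± 0.26, adjusted p = 0.0328) and, in HF-TAC, 6.24-fold below aHF-SC (log2 difference -2.64 ± 0.26, adjusted p = 0.001) and 2.54-fold below qHF-SC (log2 difference -1.34 ± 0.26, adjusted p = 0.00803).

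These values of Col5a1 depend on the probe set. With its 3 probe sets averaged, HF-TAC differed by -1.45 from aHF-SC and by -0.45 from qHF-SC, and a second probe set had HF-TAC 0.29 above qHF-SC. The higher level in aHF-SC was lost without qHF-SC replicate 2 (adjusted p = 0.173), aHF-SC replicate 1 (0.149) and aHF-SC replicate 2 (0.0937), in a range from 0.0126 to 0.173. Col5a2, the partner chain, read 946 and 699 in qHF-SC, 1019.7 and 598 in aHF-SC and 211 and 211 in HF-TAC, with the stem cell populations overlapping (log2 difference -0.06 ± 0.27, adjusted p = 0.948) and HF-TAC below both, 3.71-fold under aHF-SC (adjusted p = 0.00378) and 3.86-fold under qHF-SC (adjusted p = 0.00194). Col5a3 was dim.

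Among the type I and type III chains of dermal fibrils, only Col1a2 passed a test. Col1a2, a chain of type I collagen, read 278 and 381 in qHF-SC, 133 and 173 in aHF-SC and 61.1 and 157 in HF-TAC, with the HF-TAC arrays more than 2-fold apart. It was 3.32-fold lower in HF-TAC than in qHF-SC (log2 difference -1.73 ± 0.41, adjusted p = 0.0194), and the other 2 comparisons did not pass, with differences of -1.10 for aHF-SC against qHF-SC (adjusted p = 0.191) and -0.63 for HF-TAC against aHF-SC (adjusted p = 0.4). The call was lost without qHF-SC replicate 1 (adjusted p = 0.0523) and replicate 2 (0.117), with its 3 probe sets averaged (log2 difference -0.94, 0.0788) and with the offset (0.0513), in a range from 0.0019 to 0.117. The log2 difference was -1.05 without HF-TAC replicate 1 and -2.41 without HF-TAC replicate 2.

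Col1a1, the partner chain, read 39 and 53.3 in qHF-SC, 69.7 and 63.3 in aHF-SC and 36.7 and 46.2 in HF-TAC and passed no test. Its log2 differences were 0.54 for aHF-SC against qHF-SC and -0.69 for HF-TAC against aHF-SC. A second probe set of Col1a1 read 37.3 and 35.2 in qHF-SC, 97.1 and 77.1 in aHF-SC and 23.7 and 38.6 in HF-TAC. There the same 2 differences were larger, at 1.26 and -1.52, and this probe set was not tested on its own. Col3a1 encodes the type III collagen that accompanies type I in skin. Its intensities were 48.8 and 55.3 in qHF-SC, 94.1 and 302 in aHF-SC and 41.8 and 166 in HF-TAC, so the arrays of aHF-SC and of HF-TAC were each more than 2-fold apart. Its log2 difference of 1.70 ± 0.70 between aHF-SC and qHF-SC, the highest value among the collagens that passed no test, did not pass (adjusted p = 0.231).

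Of 10 fibroblast markers, chosen without collagens, aHF-SC had 1 higher and 1 lower than qHF-SC (3.07% and 3.21% of all genes). HF-TAC had 1 higher and 1 lower than aHF-SC (8.97% and 8.57%), and 1 higher and 2 lower than qHF-SC (13.4% and 12.9%). Thy1, a surface protein of fibroblasts and other cells, read 589 and 551 in qHF-SC, 797 and 760.0 in aHF-SC and 131 and 49.7 in HF-TAC, and was 9.66-fold lower in HF-TAC than in aHF-SC (adjusted p = 0.00203) and 7.07-fold lower than in qHF-SC (adjusted p = 0.00196). Fbln1, which encodes the matrix protein fibulin-1, read 536 and 754 in qHF-SC, 357 and 329.8 in aHF-SC and 362 and 426 in HF-TAC, and was 1.85-fold lower in aHF-SC than qHF-SC (adjusted p = 0.048) and 1.62-fold lower in HF-TAC than in qHF-SC (adjusted p = 0.0414). On every array 5 or 6 of 10 lay at or below the array median, among them Pdgfra (17.4 and 11.1 in qHF-SC, 12.8 and 12.1 in aHF-SC and 9.94 and 16.6 in HF-TAC), a receptor of dermal fibroblasts, and Lum (9.88 and 11.3 in qHF-SC, 8.62 and 9.01 in aHF-SC and 8.03 and 11.5 in HF-TAC), which encodes the fibril protein lumican. The summed intensity of the list was 1293 and 1444 in qHF-SC, 1333 and 1308 in aHF-SC, and 4259 and 6524 in HF-TAC. The sums in HF-TAC were carried by Dcn, the gene of decorin, at 28.8 and 16.6 in qHF-SC, 53.2 and 86.8 in aHF-SC and 3646 and 5927 in HF-TAC, the 1 marker of the list with a higher level past the test in all 3 comparisons. Of 10 dermal papilla and sheath genes, 2 were higher and 1 lower in HF-TAC than in aHF-SC (8.97% and 8.57% of all genes). Against qHF-SC, 3 were higher and 1 lower in HF-TAC (13.4% and 12.9%), and none passed between the stem cell populations. The summed intensities of this list were 374 and 379 in qHF-SC, 381 and 252 in aHF-SC and 724 and 786 in HF-TAC. The part of dermal cells in the fibrillar and type VI results was not tested.

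Among the 9 fibril-associated collagens measured, which decorate the surface of fibrils rather than form them, Col12a1 and Col16a1 were lower in HF-TAC than in both stem cell populations, which gave 2 of 9 in each comparison (8.57% and 12.9% of all genes), and Col16a1 was higher in aHF-SC than in qHF-SC (3.07% of all genes). Col12a1 read 1155 and 648 in qHF-SC, 1089.6 and 1161 in aHF-SC and 53.3 and 68.7 in HF-TAC, with qHF-SC and aHF-SC overlapping and HF-TAC far below. It was 18.6-fold lower in HF-TAC than in aHF-SC (log2 difference -4.22 ± 0.28, adjusted p = 0.000263) and 14.3-fold lower than in qHF-SC (log2 difference -3.84 ± 0.28, adjusted p = 0.000138). Of its 4 probe sets 2 were dim, and with the mean of all 4 the log2 differences were -1.57 and -1.36. The stem cell populations differed by 0.38 (adjusted p = 0.539).

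Col16a1, found near basement membranes of the skin, read 596 and 337 in qHF-SC, 1267 and 1593 in aHF-SC and 121 and 154 in HF-TAC, with aHF-SC highest, HF-TAC lowest and no overlap. It was 3.17-fold higher in aHF-SC than in qHF-SC (log2 difference 1.66 ± 0.29, adjusted p = 0.0208), and HF-TAC was 10.4-fold below aHF-SC (log2 difference -3.38 ± 0.29, adjusted p = 0.000628) and 3.28-fold below qHF-SC (log2 difference -1.72 ± 0.29, adjusted p = 0.00442). The first call was lost without qHF-SC replicate 2 (adjusted p = 0.0999), aHF-SC replicate 1 (0.0737) and aHF-SC replicate 2 (0.1), in a range from 0.00643 to 0.1. Col14a1, another fibril-associated collagen of skin, read 37.7 and 37.2 in qHF-SC, 52.9 and 56.9 in aHF-SC and 26.6 and 43.5 in HF-TAC, with aHF-SC above the other populations, and did not pass (adjusted p = 0.247 for aHF-SC against qHF-SC and 0.0923 for HF-TAC against aHF-SC). The other 6 measured members, Col9a1, Col9a2, Col9a3, Col19a1, Col20a1 and Col22a1, passed no test, and Col21a1 was not analysed here.

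The single collagen past the test upward in HF-TAC was a membrane-spanning one. Col23a1, a transmembrane collagen like Col17a1, read 12.1 and 16.6 in qHF-SC, 12.1 and 15.5 in aHF-SC and 27.7 and 21 in HF-TAC. The levels were low, with both arrays of each stem cell population and HF-TAC replicate 2 below the array median. The HF-TAC arrays lay above all others. The difference was 1.7-fold against qHF-SC (log2 difference 0.76 ± 0.23, adjusted p = 0.0486) and 1.76-fold against aHF-SC, where it did not pass (log2 difference 0.82 ± 0.23, adjusted p = 0.0521). Its other 2 probe sets also read higher in HF-TAC than in qHF-SC, by 1.12 and 0.85 on the log2 scale, the first of them dim. The call against qHF-SC was lost without 5 of the 6 arrays: adjusted p was 0.056 without aHF-SC replicate 1 or 2, 0.247 without qHF-SC replicate 1, 0.0561 without qHF-SC replicate 2 and 0.205 without HF-TAC replicate 1, in a range from 0.00952 to 0.247. Col13a1, a further member of this class, was dim at 11.6 and 9.69 in qHF-SC, 10.7 and 10.7 in aHF-SC and 13.4 and 17.1 in HF-TAC and did not pass. Col25a1, the fourth, differed little between arrays, at 82.7 and 87.8 in qHF-SC, 77.4 and 88.9 in aHF-SC and 83.4 and 74.7 in HF-TAC.

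In all, 22 collagens passed no test, and 12 of these were dim, with intensities between 4.81 and 23.1. The dim genes were Col4a3, Col5a3, Col6a4, Col6a5, Col9a2, Col10a1, Col11a1, Col13a1, Col19a1, Col22a1, Col24a1 and Col26a1. Several of these belong to cartilage and bone (Col9a2, Col10a1 and Col11a1). The other 10 passed no test above that level: Col1a1, Col2a1, Col3a1, Col9a1, Col9a3, Col11a2, Col14a1, Col20a1, Col25a1 and Col27a1. Over the 22 genes the log2 differences ran from -1.02 to 1.70. Col2a1, the cartilage fibril collagen, read 21.8 and 33.1 in qHF-SC, 21.4 and 22.7 in aHF-SC and 26.1 and 23.6 in HF-TAC, and Col27a1, a fibrillar collagen of cartilage, read 77.7 and 86.8 in qHF-SC, 92.2 and 81.8 in aHF-SC and 86.2 and 81.7 in HF-TAC, levels that the probe sets of other organs also reached. Col28a1 was not analysed here.

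The calls were checked on the other probe sets of the same genes. Of the 17 genes lower in HF-TAC than in aHF-SC, 10 had further probe sets, 15 in all, of which 13 had the same sign. The exceptions were a dim probe set each of Col12a1 (0.02) and Col8a1 (0.08), and all 11 that were not dim had the same sign. Between HF-TAC and qHF-SC 15 of 16 further probe sets of 10 genes had the same sign, the exception being Col5a1 (0.29). For the stem cell populations 3 of 4 further probe sets of 3 genes did, the exception again being Col5a1 (-0.11).

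**Figure D4:**
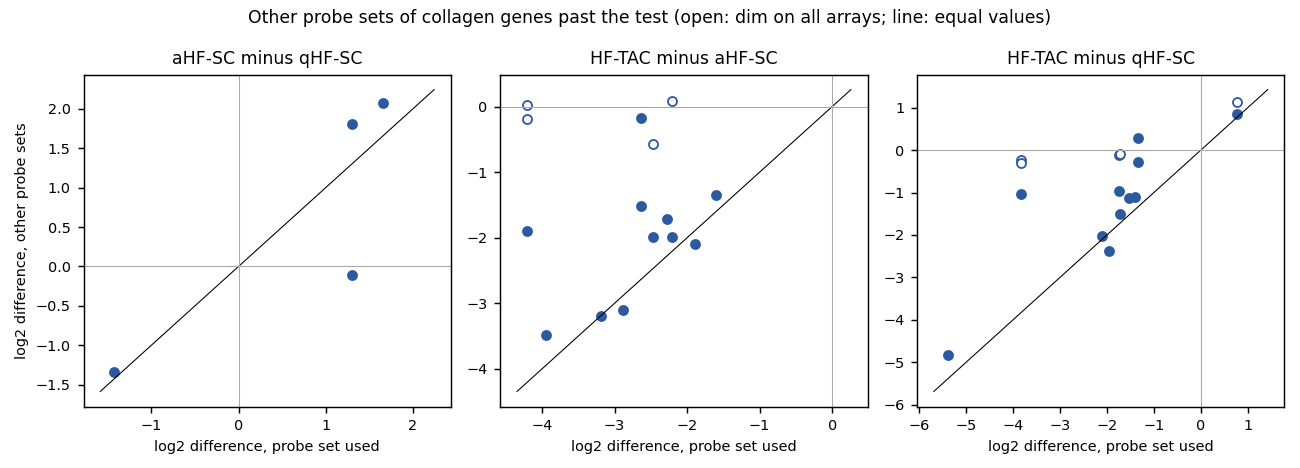
Log2 difference of the further probe sets (y axis) against that of the probe set used (x axis) for the collagen genes past the test in each of the 3 comparisons, with open symbols for dim probe sets and a line at equal values. In the HF-TAC and aHF-SC comparison all 11 filled points lie below 0, and Col12a1, at -4.22 on the x axis, has further probe sets between -1.89 and 0.02.

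Procollagen is modified and folded in the endoplasmic reticulum by hydroxylases and chaperones. Of 19 measured genes of this list, 10 were lower in HF-TAC than in aHF-SC (8.57% of all genes were), none was higher (8.97% of all genes) and 9 did not pass, with a median log2 difference of -1.16. Against qHF-SC 9 were lower in HF-TAC (12.9% of all genes), none was higher (13.4% of all genes) and 10 did not pass, with a median of -0.60. P3h2, a prolyl 3-hydroxylase that acts on type IV collagen, read 927 and 904 in qHF-SC, 458 and 639 in aHF-SC and 91.7 and 48.7 in HF-TAC, 8.1-fold lower in HF-TAC than in aHF-SC (adjusted p = 0.00111) and 13.7-fold lower than in qHF-SC (adjusted p = 0.000217). Plod1, a lysyl hydroxylase, read 301 and 365 in qHF-SC, 180.4 and 256 in aHF-SC and 41 and 30.0 in HF-TAC, and P3h4, needed for lysyl hydroxylation, read 704 and 962 in qHF-SC, 336 and 519 in aHF-SC and 61.1 and 75.5 in HF-TAC. In both genes every HF-TAC array lay below every stem cell array, with log2 differences of -2.62 and -2.62 from aHF-SC (adjusted p = 0.000793 and 0.00104) and of -3.24 and -3.60 from qHF-SC (adjusted p = 0.000143 and 0.000135). When its probe sets were averaged, the differences of Plod1 were -1.40 and -1.61.

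Serpinh1, the gene of the collagen chaperone HSP47, read 1579.7 and 1462 in qHF-SC, 2256 and 2517 in aHF-SC and 432 and 435 in HF-TAC. It was 5.49-fold lower in HF-TAC than in aHF-SC (adjusted p = 0.000224). P3h3, a prolyl 3-hydroxylase family member, was 3.86-fold lower in HF-TAC than in qHF-SC (adjusted p = 0.00108), a log2 difference of -1.95 that became -1.29 with the offset. Between the stem cell populations 2 of the 19 genes were higher in aHF-SC (3.07% of all genes) and none was lower (3.21% of all genes). P4ha2, a prolyl 4-hydroxylase subunit, read 62.2 and 55.3 in qHF-SC, 119.8 and 130.3 in aHF-SC and 31.3 and 25.3 in HF-TAC, a 2.13-fold difference (adjusted p = 0.0158) that was lost without qHF-SC replicate 2 (0.118), aHF-SC replicate 1 (0.07) and aHF-SC replicate 2 (0.0752), in a range from 0.0124 to 0.118. Serpinh1 was 1.57-fold higher (adjusted p = 0.0494), a call lost without any 1 of the 6 arrays, at 0.0596 without HF-TAC replicate 1 or 2, 0.126 and 0.2 without aHF-SC replicates 1 and 2, and 0.143 and 0.267 without qHF-SC replicates 1 and 2. It passed in 3 of the 17 alternative settings, with adjusted p from 0.036 to 0.267, and had a log2 difference of 0.47 when its probe sets were averaged (0.0819).

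Of 10 measured genes for procollagen cleavage and crosslinking, 4 were lower in HF-TAC than in aHF-SC (8.57% of all genes) and 2 lower than in qHF-SC (12.9% of all genes). Between the stem cell populations 1 was higher (3.07% of all genes) and 2 were lower in aHF-SC (3.21% of all genes). Pcolce2 encodes an enhancer of the proteinase that trims procollagens. It read 861 and 1327 in qHF-SC, 96.6 and 157 in aHF-SC and 12.1 and 13.5 in HF-TAC, a descent without overlap: 8.69-fold lower in aHF-SC than qHF-SC (log2 difference -3.12 ± 0.29, adjusted p = 0.00322), 9.63-fold lower in HF-TAC than in aHF-SC (log2 difference -3.27 ± 0.29, adjusted p = 0.000672), and 83.7-fold lower in HF-TAC than in qHF-SC (log2 difference -6.39 ± 0.29, adjusted p = 3.98e-05). With the offset of 16 the last 2 log2 differences were -2.28 and -5.24. Tll1, a proteinase of that family, read 64.1 and 39.8 in qHF-SC, 10.3 and 13.8 in aHF-SC and 8.29 and 7.43 in HF-TAC, with aHF-SC 4.24-fold below qHF-SC (adjusted p = 0.00813) and HF-TAC 6.44-fold below qHF-SC (adjusted p = 0.000412), with log2 differences of -1.26 and -1.49 after the offset.

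Bmp1, the main such proteinase, was 2.47-fold higher in aHF-SC than in qHF-SC (adjusted p = 0.0369) and 2.14-fold lower in HF-TAC than in aHF-SC (adjusted p = 0.0313), at 172 and 99 in qHF-SC, 286 and 363 in aHF-SC and 156 and 145 in HF-TAC. Its first call was lost without qHF-SC replicate 2 (adjusted p = 0.157), aHF-SC replicate 1 (0.0969) and aHF-SC replicate 2 (0.163), when its probe sets were averaged (log2 difference 0.78, 0.0731), with the offset (0.0802) and with either replicate block (0.0596 and 0.0557), in a range from 0.0163 to 0.163. Its second was lost without aHF-SC replicate 1 (0.0607) or 2 (0.164) and HF-TAC replicate 1 (0.0756) or 2 (0.114), when its probe sets were averaged (-0.52, 0.131) and with the offset (0.0616), in a range from 0.013 to 0.164. Adamts3, which removes an end piece of procollagens, had a log2 difference of -2.50 between HF-TAC and aHF-SC (adjusted p = 0.00993; 0.0558 without aHF-SC replicate 1, range 0.00152 to 0.0558), which was -1.28 when its probe sets were averaged and -1.57 with the offset. Loxl1, a lysyl oxidase that crosslinks elastic fibres, read 20.4 and 17.9 in qHF-SC, 28 and 21.9 in aHF-SC and 13.8 and 15.2 in HF-TAC. Only its aHF-SC replicate 1 lay above the array median. Its log2 difference between HF-TAC and aHF-SC was -0.78 (adjusted p = 0.0251). This call was lost without aHF-SC replicate 1 (log2 difference -0.60), HF-TAC replicate 1 (-0.71) and HF-TAC replicate 2 (-0.85). With all arrays kept, it was also lost when its probe sets were averaged (-0.52, adjusted p = 0.06275) and with the offset (-0.42, adjusted p = 0.0553).

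Of 9 measured collagen receptor genes, 3 were lower in HF-TAC than in aHF-SC (8.57% of all genes), 2 were lower (12.9%) and 1 was higher (13.4%) than in qHF-SC, and 1 was higher in aHF-SC than in qHF-SC (3.07%). Itga1, the integrin α1 chain that binds type IV collagen, read 104 and 26.4 in qHF-SC, 231 and 167 in aHF-SC and 20.1 and 20.7 in HF-TAC, and its log2 difference between HF-TAC and aHF-SC was -3.27 (adjusted p = 0.00708), or -1.94 when its probe sets were averaged and -2.55 with the offset. Itgb1, its β1 partner, was 2.48-fold lower in HF-TAC than in aHF-SC (adjusted p = 0.00668) and 2.05-fold lower than in qHF-SC (adjusted p = 0.0117). The mean of its probe sets gave a log2 difference of -0.59 from aHF-SC, and its second call was lost without qHF-SC replicate 1 (0.0753) and HF-TAC replicate 1 (0.0517), in a range from 0.00523 to 0.0753. Ddr1, the epithelial collagen receptor kinase, read 4028 and 4143 in qHF-SC, 3102 and 4274 in aHF-SC and 1840.3 and 1958 in HF-TAC. It was 1.92-fold lower in HF-TAC than in aHF-SC (adjusted p = 0.014; 0.073 with aHF-SC replicate 2 left out and 0.0528 with HF-TAC replicate 1 left out, range 0.00484 to 0.073) and 2.15-fold lower than in qHF-SC (adjusted p = 0.00466).

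Mrc2, an endocytic receptor that takes up collagen, read 14.6 and 18.4 in qHF-SC, 65.9 and 55.1 in aHF-SC and 49.7 and 47.7 in HF-TAC. Here aHF-SC and HF-TAC both lay above qHF-SC, by 3.68-fold (adjusted p = 0.00348) and 2.97-fold (adjusted p = 0.000838), and the log2 differences were 0.86 and 0.72 when its probe sets were averaged. Acta2 and Tagln, 2 of the 7 smooth muscle and pericyte markers, were higher in aHF-SC than in qHF-SC too. They were also higher in HF-TAC than in qHF-SC, by 4.66-fold (adjusted p = 0.00971) and 3.23-fold (adjusted p = 0.0116). Both read lower in HF-TAC than in aHF-SC, where Mrc2 did not pass (log2 difference -0.31, adjusted p = 0.331). The part of other cells in the Mrc2 calls was not tested.

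**Figure D5:**
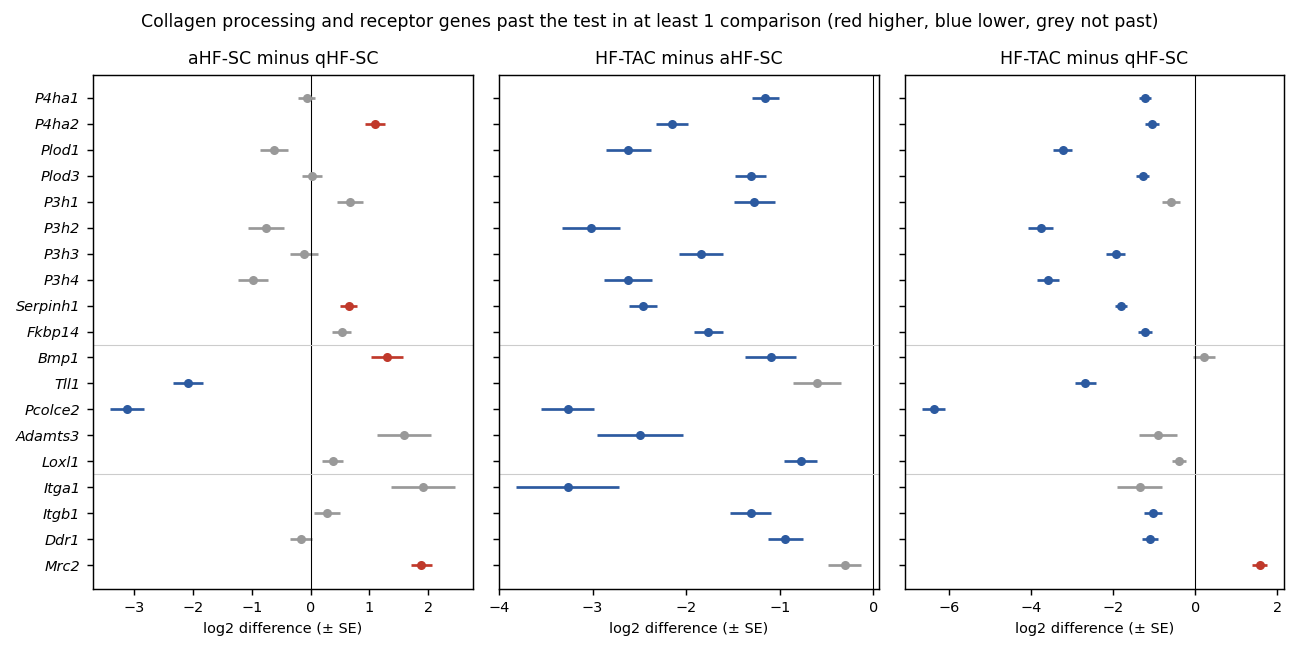
Log2 difference with its standard error (x axis) in the 3 comparisons for the collagen processing and receptor genes past the test in at least 1 comparison (y axis, grouped by list), with red for higher, blue for lower and grey for not past the test. In the hydroxylase and chaperone list 10 and 9 genes are blue in the comparisons of HF-TAC with aHF-SC and qHF-SC, and Mrc2 is red in the 2 comparisons with qHF-SC.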

How the data were processed

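The authors hybridised biotin-labelled RNA to Affymetrix mouse genome arrays and deposited 1 intensity per probe set on a linear scale, from 3.83 to 31188.2. RMA is named in the submitters' processing notes without a version or role, with software and chip definition not given in the sources used here. RMA usually quantile-normalises arrays, which assumes like RNA distributions, and it compresses dim signals. For arrays, the number of replicates, here 2 per population, limits the precision.

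From the deposited intensities log2 values were computed. Of 45101 probe sets, 64 controls were left out, 34945 of the rest carried 1 gene symbol, 932 several and 9160 none. Each gene was represented by its probe set with the highest mean, which left 18193 genes. The 42 collagens had 82 probe sets, and all 42 matched RefSeq by Entrez ID. The 3 populations were fitted in 1 model with limma 3.58.1 (R 4.3.3, 3 residual degrees of freedom, prior 4.25), with two-sided tests and Benjamini-Hochberg adjustment per comparison. The script was checked on simulated data. No detection calls or filter on dim genes were used.

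Every collagen past the threshold was named, with up to 4 of each list of processing and receptor genes per comparison. Members, lists and markers were chosen with earlier results of these data known. Alternatives covered probe set choice, scaling, offset, filters, the fit and the loss of each array. Promoter sequences come from RefSeq's table for GRCm38.p6.

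Same-numbered arrays did not deviate together in all pairs of populations: correlations of their deviations from the group means were 0.0615 for qHF-SC and aHF-SC, -0.127 for qHF-SC and HF-TAC and 0.0838 for aHF-SC and HF-TAC. The numbers were therefore not treated as pairs.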

Additional observations from a re-analysis of the deposited data

How the results depend on the processing

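The counts of collagens lower in HF-TAC stayed within 1.5 times of 17 and 16 in every setting tried, at 16 to 19 against aHF-SC and 12 to 16 against qHF-SC. The count higher in aHF-SC than in qHF-SC, 5, was 1 with an offset of 16 and ran from 0 to 6 over the fits without 1 array. The count lower there, 3, was 1 with the offset and ran from 0 to 4. With the replicate number as a block, 3 were higher in aHF-SC, 2 of them among the 5, and Col4a1, Col4a2 and Col5a1 were lost (adjusted p = 0.0702, 0.0865 and 0.0556), while none was higher in HF-TAC than in qHF-SC. A block with the HF-TAC numbers crossed, added after the data were seen, gave 4 and 3 calls between the stem cell populations and 1 collagen higher in HF-TAC than in aHF-SC. The count of 0 for that direction also became 1, Col23a1, with the mean of all probe sets, median scaling, quantile normalisation and an intensity trend. The count of 1 higher in HF-TAC than in qHF-SC became 0 with scaling to the 75th percentile, the offset, dim genes left out, only the arrays of the 2 groups compared and the block, and ran from 0 to 1 without 1 array. The causes were not tested, except that the filter removes Col23a1. That filter kept only genes above the array median on at least 2 arrays, which is stricter than the definition of dim given above. The 20 collagens past a test were each followed in all 3 comparisons, including those where they had not passed. Of these results under the alternatives, 940 were on the same side of the threshold as in the main fit. A further 60 no longer passed and 17 newly passed. None turned its direction where the main fit or the alternative passed, and turns between results that passed in neither were not counted. Over all genes, the 558 higher and 584 lower in aHF-SC fell to 54 and 70 without qHF-SC replicate 2. Signals at or below the array median limit the size of any fold for Col6a1, Col8a2, Col15a1, Col6a3, Col23a1 and, on 1 array, Col4a4. In HF-TAC, Col4a6, Col5a1, Col6a2, Col7a1, Col8a1 and Col12a1 lay above the array median but below the 117 reached by probe sets of other organs. Background may therefore limit their folds as well.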

Other observations

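The 2 qHF-SC arrays differed in the direction of the comparison between the stem cell populations. In 7 of the 8 collagens past that test (87.5%), qHF-SC replicate 1 lay nearer to the aHF-SC mean than replicate 2 did. Over all 1142 genes past the test the same held for 835 (73.1%), and over all 18193 genes for 9894 (54.4%).

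The summed intensity of 7 immune markers lay between 161 and 236 over the 6 arrays, that of 3 adipocyte markers between 25.8 and 28.4, and that of 2 erythroid markers between 28.4 and 31.6, and none of these genes passed a test. The 5 Schwann cell and melanocyte markers summed to 234 and 187 in qHF-SC, 291 and 345 in aHF-SC and 447 and 575 in HF-TAC. Of these 5, 3 were higher in HF-TAC than in qHF-SC, where 13.4% of all genes were.

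Of 8 pairs of collagen genes that are next to each other among protein-coding genes in RefSeq, 7 had both members measured. Col6a1 and Col6a2 and the pair Col4a1 and Col4a2 passed the same tests in the same direction in all 3 comparisons. In Col4a5 and Col4a6 both passed against aHF-SC and 1 passed against qHF-SC. In Col3a1 and Col5a2, and in Col4a3 and Col4a4, 1 member of the pair passed. In Col9a1 and Col19a1, and in Col6a4 and Col6a5, neither did.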
